A study of Mus musculus with 24 samples.

Results

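*Ptpn14* and 8 other genes of the Hippo pathway, *Yap1*, *Wwtr1*, *Tead1*, *Lats1*, *Lats2*, *Amotl1*, *Amotl2* and *Nf2*, were followed across the hippocampi of 24 mice. They are 9 of the 36605 genes in the count table, matched by symbol to its Ensembl identifiers, and all 9 had enough reads to be tested in every comparison. *Ptpn14* was selected on its own rise in mice that lost *Egr1*, both against the 18 other mice and as an interaction of the floxed allele with Cre, so its differences between genotypes, including the comparisons of a single modification that enter the interaction, are given as a description without a test. Only comparisons by sex and relations within groups of like mice, which the choice did not use, are tested for it. The 8 others were chosen by pathway membership, and the question asked of them was whether they moved with *Ptpn14*.

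The data are polyA RNA-seq of the hippocampus of adult mice of 4 genotypes, with 3 females and 3 males in each (n = 6). Egr1 wtNes Cre- mice had wild-type *Egr1* and no Cre, and Egr1 fNes Cre- mice had *Egr1* between loxP sites (floxP) without Cre. Egr1 wtNes Cre+ mice had wild-type *Egr1* and the Nestin-Cre transgene, and Egr1 fNes Cre+ mice had both, which deletes *Egr1* (Egr1cKO). The floxed line is on C57BL/6N and the Cre line is B6.Cg-Tg(Nes-Cre)1Kln/J, and an age in weeks or months is not given in the sources used here. Because the Nestin promoter drives Cre in neural precursors, the loss covers neurons and glia of the whole nervous system and is not specific to the hippocampus. The labels number the Egr1 wt and Egr1 f mice in separate ranges, so the allele and the series of mice cannot be told apart.

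In the Hippo pathway, the MST kinases activate the LATS kinases, which phosphorylate the coactivators YAP and TAZ (encoded by *Wwtr1*) and keep them out of the nucleus. Unphosphorylated YAP and TAZ bind TEAD transcription factors and switch on genes of growth, adhesion and the matrix. PTPN14 is a tyrosine phosphatase with a FERM domain that binds YAP and holds it in the cytoplasm, and its own gene is on published lists of YAP and TAZ targets. In the adult brain YAP and TAZ are found mainly in astrocytes, vascular cells and neural progenitors.

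Between 18025168 and 34955004 reads per mouse were counted on genes, with a median of 22743950.5. Levels are given as CPM, which puts counts on a common library size with TMM factors. *Egr1* itself, on chromosome 18, separated the genotypes in the way the labels state. Its lowest, median and highest levels were 63.8, 111 and 149 CPM in Egr1 wtNes Cre- and 67.0, 83.3 and 147 CPM in Egr1 fNes Cre- mice. With Cre and wild-type alleles they were 47.7, 85.2 and 125 CPM. In Egr1cKO mice they were 4.86, 8.18 and 10.2 CPM, so no Egr1cKO mouse overlapped the others, and 125 to 268 reads remained in each. The log2FC (log2 fold change) of *Egr1* between Egr1cKO and the other 18 mice was -3.59 ± 0.23 (standard error; edgeR adjusted *p* = 1.19e-11).

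The labels give the cell type as endocrine, and the marker genes did not show it. Of 8 pituitary hormone and lineage genes, 7 were in the table and 2 were kept by the filter on low counts. Their most abundant gene, *Tshb*, had a median of 1.1 CPM, and *Gh*, *Prl*, *Cga*, *Fshb* and *Pou1f1* did not pass the filter. All 6 hippocampal subfield markers passed, with *Zbtb20* at a median of 457 CPM, and all 6 neuron and 6 astrocyte markers passed as well. The samples are therefore called hippocampal tissue. In such tissue, fewer cells of a type and less RNA per cell cannot be told apart.

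Some libraries stood apart from the rest of their genotype. The third Egr1cKO male had the lowest summed level of the 6 hippocampal subfield markers (839 CPM, against a median of 1290 CPM in its genotype) and the highest sum of the 5 striatal markers (69.3 CPM against 29.9 CPM). Its summed oligodendrocyte markers (3054 CPM) were the lowest of the 24 mice, and mitochondrial genes took 6.12% of its counts against a median of 4.4% in its genotype. The 6 choroid plexus markers summed to 805 and 1033 CPM in the second and the third Egr1 fNes Cre- males, to 2030 and 322 CPM in the first Egr1 wtNes Cre+ female and the third male of that genotype and to 1122 CPM in the second Egr1cKO male, against medians of 37.9 to 64.5 CPM in the genotypes. The log2FC of the 9 genes against the 18 other mice are given with and without the third Egr1cKO male.

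*Ptpn14* (ENSMUSG00000026604) lies on chromosome 1 at 189728268-189876695 on the + strand of GRCm38, with 13413 exonic bases. In Egr1cKO females its levels were 19.6, 27.5 and 27.5 CPM, and in Egr1cKO males they were 20.9, 20.5 and 36.2 CPM. In Egr1 wtNes Cre- mice they were 21.1, 16.5 and 23.4 CPM in females and 16.8, 18.4 and 21 CPM in males. The 3 highest levels of the 24 mice thus belonged to Egr1cKO mice, and the other 3 Egr1cKO mice fell within the range of the wild type. In Egr1 fNes Cre- mice the levels were 14.5, 14.5 and 17.3 CPM in females and 20.4, 17.2 and 18.4 CPM in males. Egr1 wtNes Cre+ females were at 16.4, 21.4 and 17.6 CPM and the males at 15.3, 17.5 and 11.5 CPM. All 6 Egr1cKO mice lay above the median of the 18 others, 17.4 CPM, but the groups overlapped, since the 18 others reached 23.4 CPM.

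**Figure D1:**
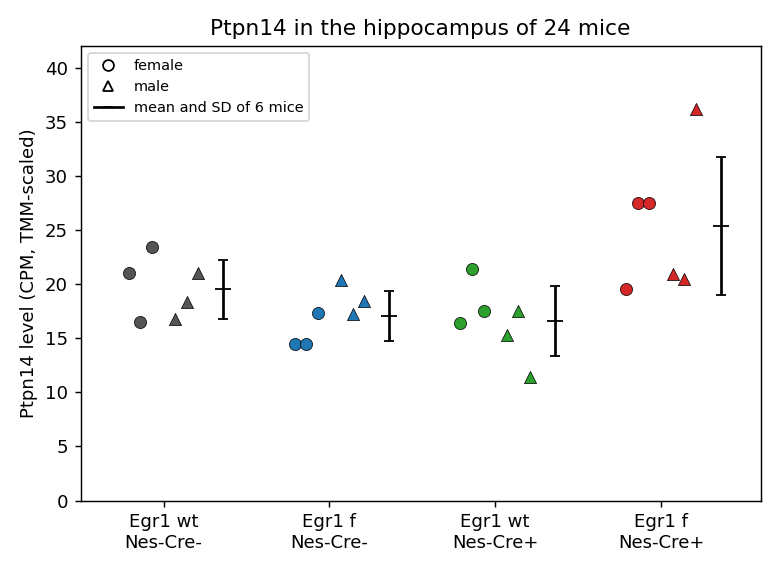
The level of *Ptpn14* in each mouse (y axis, TMM-scaled CPM) by genotype (x axis), with circles for females, triangles for males and a bar for the mean and SD of the 6 mice of a genotype. The Egr1cKO mice (Egr1 f Nes-Cre+) run from 19.6 to 36.2 CPM and the 18 others from 11.5 to 23.4 CPM.

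By genotype, *Ptpn14* averaged 25.4 ± 6.36 CPM (SD, n = 6) in Egr1cKO, 19.5 ± 2.74 CPM in Egr1 wtNes Cre-, 17.1 ± 2.28 CPM in Egr1 fNes Cre- and 16.6 ± 3.26 CPM in Egr1 wtNes Cre+ mice. The ranges of the last 3 genotypes overlapped. The log2FC of *Ptpn14* was 0.52 ± 0.12 (standard error) against the 18 other mice, 0.58 ± 0.14 against Egr1 fNes Cre- and 0.62 ± 0.16 against Egr1 wtNes Cre+ mice. These comparisons share the Egr1cKO mice, and the first holds the controls of the others. The interaction of floxP and Nestin-Cre was 0.81 ± 0.21. These are the values that chose the gene. Without the third Egr1cKO male these 4 values were 0.39, 0.45, 0.46 and 0.67, in the same order. Over all 24 fits that each left out 1 mouse, the log2FC against the 18 others ran from 0.39 to 0.59.

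*Ptpn14* had lower estimates with either modification alone, which enter the interaction. Its log2FC was -0.20 ± 0.11 in Egr1 fNes Cre- against wild-type mice and -0.24 ± 0.12 in Egr1 wtNes Cre+ against wild-type mice. The groups overlapped in both, and these values helped to choose the gene. In the first of these comparisons edgeR called 0 of 17393 genes (0.0%), with 1683 genes at an unadjusted *p* under 0.05 and 2 called by DESeq2. In the second it called 0 of 17167 genes (0.0%), with 1038 genes at an unadjusted *p* under 0.05 and 20 called by DESeq2.

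Sex was not used to choose *Ptpn14*. Egr1cKO females averaged 24.8 ± 4.56 CPM (SD, n = 3) and the 9 other females 18.1 ± 3.16 CPM, a log2FC of 0.46. Egr1cKO males averaged 25.9 ± 8.93 CPM (n = 3) and the 9 other males 17.4 ± 2.83 CPM, a log2FC of 0.58. The difference between these effects, female minus male, was -0.12 ± 0.23 on the log2 scale (edgeR adjusted *p* = 0.953), and its sign turned to 0.22 without the third Egr1cKO male. Across all genes 1 of 19742 (0.00507%) was called for a difference of the effect between the sexes, *Muc3a*, named after its value was seen. Between the 12 females and 12 males the log2FC of *Ptpn14* was 0.016 ± 0.13 (edgeR adjusted *p* = 0.993), and it ran from -0.036 without the third Egr1cKO female to 0.14 without the third Egr1cKO male. In this comparison 12 of 17124 genes (0.0701%) were called, all on the X or Y chromosome but *Tgfb3*, named after its value was seen.

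LATS1 and LATS2 are the kinases that act directly on YAP and TAZ. *Lats1* had lowest, median and highest levels of 48.8, 54.4 and 59.1 CPM in Egr1cKO and 53.0, 55.1 and 57.1 CPM in Egr1 wtNes Cre- mice. It had 41.3, 48.7 and 56.1 CPM in Egr1 fNes Cre- and 44.9, 49.4 and 54.3 CPM in Egr1 wtNes Cre+ mice. Egr1cKO and wild-type mice thus had like medians of *Lats1*, and both genotypes with a single modification had lower medians, with overlap throughout. Of the 6 Egr1cKO mice, 3 lay above every one of the 18 others. The log2FC of *Lats1* was -0.17 ± 0.067 in Egr1 fNes Cre- against wild type (edgeR adjusted *p* = 0.515) and -0.17 ± 0.063 in Egr1 wtNes Cre+ against wild type (edgeR adjusted *p* = 0.754). The floxP and Nestin-Cre interaction was 0.32 ± 0.098 for *Lats1*, with an unadjusted *p* of 0.00279 and an edgeR adjusted *p* of 0.150, and passed the threshold only without the second Egr1 wtNes Cre+ male (edgeR adjusted *p* = 0.0269; range over the 24 mice left out in turn 0.0269 to 0.269). Against the 18 others the log2FC of *Lats1* was 0.093 with and 0.11 without the third Egr1cKO male.

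*Lats2*, itself a YAP and TAZ target, showed no such pattern. Its lowest, median and highest levels were 29.9, 38.1 and 47.9 CPM in Egr1cKO mice and 28.3, 37.2 and 46.8 CPM in the 18 others. The log2FC against the 18 others was 0.048 ± 0.090 (edgeR adjusted *p* = 0.828), and the interaction was -0.015 ± 0.16 (edgeR adjusted *p* = 0.971). Its sign against the 18 others changed in 3 of 33 alternative fits, and without the third Egr1cKO male the value was 0.11.

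Upstream, *Nf2* encodes Merlin, a FERM protein that brings LATS to the membrane, and *Amotl1* and *Amotl2* encode angiomotin-like scaffolds that bind YAP at junctions. *Nf2* ranged from 107 to 152 CPM in Egr1cKO mice, the third male being the lowest of all 24 mice and the first female the highest, and from 122 to 142 CPM in the 18 others. Its log2FC was 0.029 ± 0.049 (edgeR adjusted *p* = 0.803), and the 2 extreme mice moved it, to 0.088 without the third male and to -0.0057 without the first female. *Amotl1* ran from 27.9 to 34.4 CPM in Egr1cKO mice with a median of 31.5 CPM, and from 21.9 to 37.9 CPM in the 18 others with a median of 27.0 CPM. All 6 Egr1cKO mice were above the others' median for *Amotl1*, yet none exceeded their highest mouse, the first Egr1 wtNes Cre+ female. The log2FC of *Amotl1* was 0.20 ± 0.081 (unadjusted *p* = 0.0183, edgeR adjusted *p* = 0.251), and it was 0.20 in each sex taken alone and 0.20 without the third Egr1cKO male.

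*Amotl2* depended on which controls were used. Its lowest, median and highest levels were 16.1, 19.2 and 20.4 CPM in Egr1cKO and 13.5, 15.1 and 18.2 CPM in Egr1 fNes Cre- mice. They were 15.5, 18 and 24.4 CPM in Egr1 wtNes Cre+ and 12.9, 16.0 and 20.4 CPM in Egr1 wtNes Cre- mice. Both genotypes with Cre had higher medians than both genotypes without it. The log2FC was 0.27 ± 0.094 against Egr1 fNes Cre- mice (edgeR adjusted *p* = 0.255), -0.0052 ± 0.12 against Egr1 wtNes Cre+ mice (edgeR adjusted *p* = 0.992) and 0.19 ± 0.13 for Nestin-Cre alone against wild type (edgeR adjusted *p* = 0.758). None of these passed the test. Without the first Egr1 wtNes Cre+ female, at 24.4 CPM the highest of the 24 mice for *Amotl2* and the one with the highest choroid plexus sum, the value for Nestin-Cre alone was 0.089 and that against Egr1 wtNes Cre+ mice 0.094. Against the 18 others the log2FC of *Amotl2* was 0.15 with and 0.14 without the third Egr1cKO male.

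Among the effectors, *Wwtr1*, which encodes TAZ, came nearest to the threshold. Its levels in Egr1cKO females were 18.3, 25.1 and 25.2 CPM, and in Egr1cKO males they were 22.3, 18.2 and 14.6 CPM. The 18 others ran from 12.3 to 20.5 CPM with a median of 16.7 CPM. The first Egr1cKO male and the second and the third Egr1cKO females exceeded every other mouse, and the third Egr1cKO male, highest of all for *Ptpn14*, was lowest of its genotype and 21st of the 24 mice. The log2FC of *Wwtr1* against the 18 others was 0.29 ± 0.099 (unadjusted *p* = 0.0059, edgeR adjusted *p* = 0.220). Without the third Egr1cKO male it was 0.38 ± 0.096 (edgeR adjusted *p* = 0.0469; range over the 24 mice left out in turn 0.0469 to 0.486), which passed the threshold.

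*Yap1* and *Wwtr1* encode paralogs, and that mouse separated them. *Yap1* was at 28.6 CPM in the third Egr1cKO male, second of the 24 mice, and at 18.5 to 23.7 CPM in the other 5 Egr1cKO mice. The 18 others ran from 16.3 to 28.9 CPM. The log2FC of *Yap1* was 0.15 ± 0.095 (edgeR adjusted *p* = 0.445) with that mouse and 0.074 without it. *Tead1*, the partner factor, was at 27.9 CPM in the same mouse, the lowest of all 24, and at 41.1 to 53.0 CPM in the other 5 Egr1cKO mice. Its log2FC was 0.11 ± 0.11 (edgeR adjusted *p* = 0.659) with that mouse, 0.21 without it and 0.047 without the third Egr1cKO female. Taken by sex, the log2FC of *Tead1* was 0.25 in females and -0.038 in males.

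*Tead1* had lower medians in both genotypes with a single modification. Its lowest, median and highest levels were 41.9, 45.3 and 48.4 CPM in Egr1 wtNes Cre-, 30.5, 36.4 and 47.4 CPM in Egr1 fNes Cre- and 35, 37.4 and 50.5 CPM in Egr1 wtNes Cre+ mice. The log2FC of Egr1 fNes Cre- against wild type was -0.26 ± 0.099 (unadjusted *p* = 0.0161, edgeR adjusted *p* = 0.515). That of Egr1 wtNes Cre+ against wild type was -0.14 ± 0.10 (unadjusted *p* = 0.196, edgeR adjusted *p* = 0.765), and the second male and the second female of that genotype, at 50.5 and 50.2 CPM, lay above every wild-type mouse. The interaction was 0.38 ± 0.19 (edgeR adjusted *p* = 0.267). The groups overlapped and none of these values passed the test, although the interaction of *Tead1* did without a filter on low counts.

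**Figure D2:**
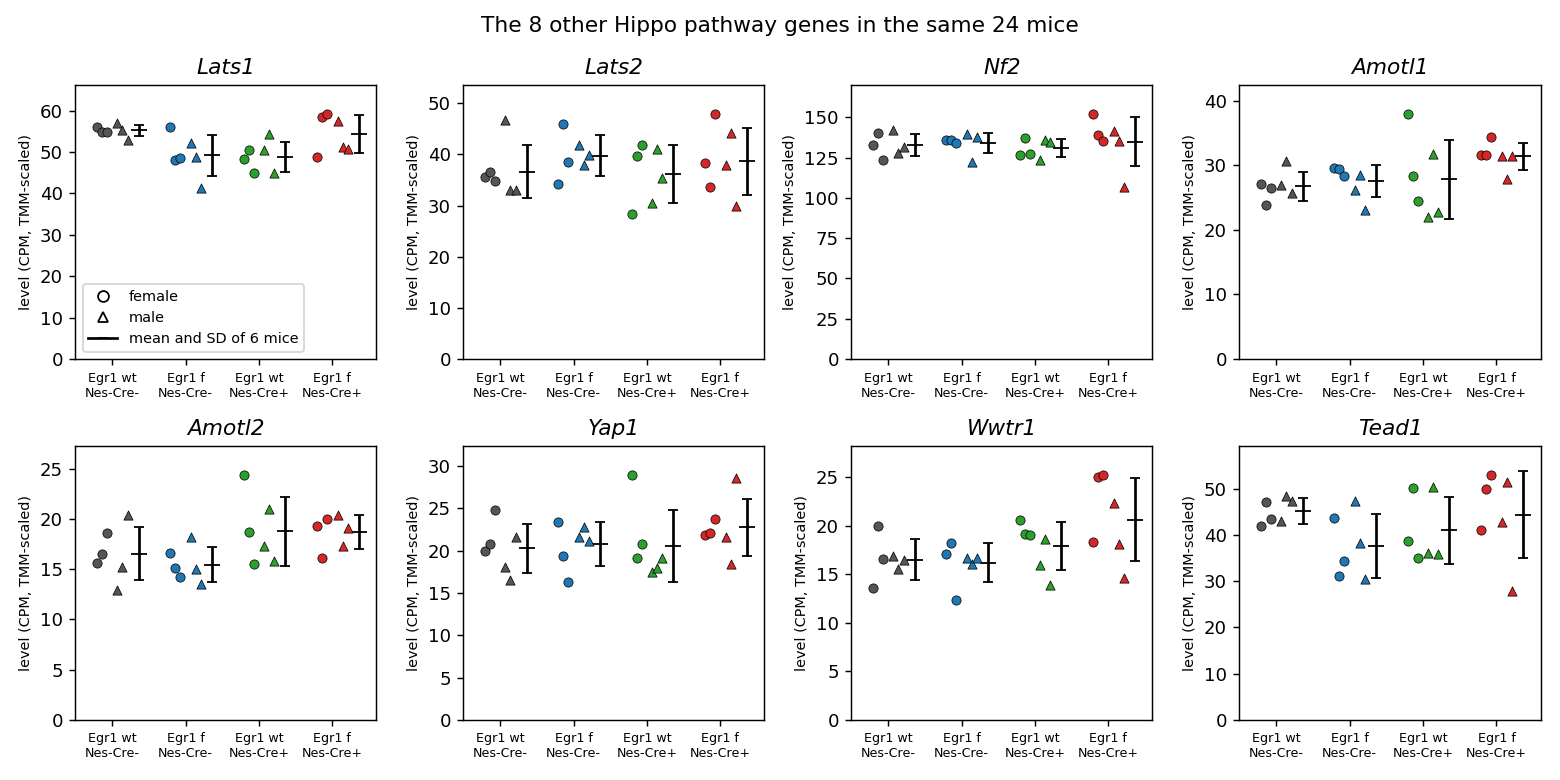
Levels of the 8 other genes in each mouse (y axes, TMM-scaled CPM, each from 0) by genotype (x axes), with circles for females, triangles for males and a bar for the mean and SD of the 6 mice of a genotype. In each panel the Egr1cKO mice (Egr1 f Nes-Cre+) overlap the 3 other genotypes. The lowest Egr1cKO mouse is the third male for *Nf2* (107 CPM), *Lats2* (29.9 CPM), *Wwtr1* (14.6 CPM) and *Tead1* (27.9 CPM).

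Per kilobase of exon, which allows genes to be ordered, the median level over the 24 mice was highest for *Nf2* at 19.8 CPM per kb and lowest for *Ptpn14* at 1.37 CPM per kb. Between them came *Lats1* (7.08 CPM per kb), *Lats2* (5.44), *Wwtr1* (3.55), *Tead1* (3.16), *Amotl1* (2.81), *Amotl2* (2.7) and *Yap1* (2.26). *Nf2* did not overlap *Lats1* in any mouse, whereas every later neighbor in this order overlapped the next one. *Ptpn14* stood at the 38.2nd percentile of the 19742 genes kept and spanned 0.854 to 2.7 CPM per kb, or 267 to 931 reads per mouse.

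Among the 8 other members, the log2FC against the 18 other mice was above 0 for all 8, from 0.029 to 0.29 with a median of 0.13, and 2 had an unadjusted *p* under 0.05, beside 48.2% above 0 and 15.1% at an unadjusted *p* under 0.05 over all genes tested. With Egr1 fNes Cre- controls alone it was above 0 for 7 of 8, all but *Lats2*, with a median of 0.17, beside 48.6% of all genes tested. With Egr1 wtNes Cre+ controls alone it was above 0 for 7 of 8, all but *Amotl2*, with a median of 0.13, beside 46.7% of all genes tested. At an unadjusted *p* under 0.05 there were 3 of 8 with Egr1 fNes Cre- controls, beside 16.2% of all genes tested. With Egr1 wtNes Cre+ controls there were 0 of 8, beside 12.3%. The median over all genes tested was -0.0076, -0.0071 and -0.015 in these 3 comparisons, which share the Egr1cKO mice. No member was free of overlap against the 18 other mice, where 0.0109% of genes were, nor against Egr1 fNes Cre- mice, where 0.463% were.

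The wider pathway was followed in lists of 58 genes other than *Ptpn14*, of which 57 were tested. The lists include the 8 other members, so the counts below hold them again. Against the 18 other mice, edgeR called none of the 57, and it called 1 of 18433 genes in all (0.00543%), *Egr1*. At an unadjusted *p* under 0.05 there were 11 pathway genes higher and 1 lower, 21.1% of the 57 against 15.1% of all genes tested, and DESeq2 also called none. The log2FC was above 0 for 44 of the 57 (77.2%) and for 48.2% of all genes tested, and the medians were 0.090 and -0.0076. The direction of the list was the same with DESeq2 size factors, under which 44 of 57 were above 0.

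Of the 11 genes of the kinase core, 10 had a log2FC above 0, none was called, and the median was 0.060. *Taok1*, which encodes a kinase that activates MST, had a log2FC of 0.26 ± 0.087 (edgeR adjusted *p* = 0.223), and *Sav1*, which encodes the MST scaffold, had 0.19 ± 0.077 (edgeR adjusted *p* = 0.268). The least changed were *Mob1b* (0.019), a LATS cofactor gene, and the MST2 gene *Stk3* (-0.031). The 16 upstream regulators without *Ptpn14* held 11 above and 5 below 0, with a median of 0.12. *Amot*, the angiomotin gene, was at 0.31 ± 0.11 (edgeR adjusted *p* = 0.223) and *Wtip*, which encodes an Ajuba family LIM protein that inhibits LATS, at -0.35 ± 0.12 (edgeR adjusted *p* = 0.227), while *Csnk1e* (-0.012) and *Limd1* (-0.014) were least changed. The 8 effectors had 6 above 0, with *Vgll3* at 0.16 ± 0.50 next to *Wwtr1*, and *Tead4* (-0.035) and *Tead2* (0.066) least changed.

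A signature of YAP and TAZ target genes would report on the activity of the pathway at the RNA level. Of its 21 genes other than *Ptpn14*, 20 were tested, 16 had a log2FC above 0 and none was called, with a median of 0.094. *Ankrd1* was not tested, with 0 to 8 reads per mouse. The most changed was *Crim1*, at 0.32 ± 0.096 (edgeR adjusted *p* = 0.201), followed by *Foxf2* at 0.24 ± 0.18 (edgeR adjusted *p* = 0.535), and the least changed were *Ccdc80* (0.013) and *F3* (0.044). The best known targets, *Ccn1* and *Ccn2*, named here outside the rule, had log2FC of -0.20 ± 0.30 (edgeR adjusted *p* = 0.773) and 0.055 ± 0.35 (edgeR adjusted *p* = 0.957). *Ccn2* ran from 1.61 to 8.94 CPM in Egr1cKO mice and from 0.718 to 8.50 CPM in the 18 others, so its spread within groups was wide. Among the 4 other FERM phosphatase genes, *Ptpn4* (0.23 ± 0.097, edgeR adjusted *p* = 0.263) and *Ptpn13* (0.20 ± 0.082, edgeR adjusted *p* = 0.251) had higher estimates, and *Ptpn21* (0.0072) and *Ptpn3* (-0.011) were near 0.

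With other controls the lists gave like counts. In the floxP and Nestin-Cre interaction edgeR called 1 of 18433 genes (0.00543%) and none of the 57, of which 13 (22.8%) had an unadjusted *p* under 0.05 against 19.2% of all genes, and DESeq2 called 2, *Taok1* and *Crim1*. Against Egr1 fNes Cre- mice it called 4 of 17265 genes (0.0232%), *Egr1*, *Aqp4*, *Tnc* and *C4b*, and none of the 57, of which 12 (21.1%) had an unadjusted *p* under 0.05 against 16.2% of all genes, and DESeq2 called none. Against Egr1 wtNes Cre+ mice it called 1 of 17080 genes (0.00585%) and none of the 57, of which 12 (21.1%) had an unadjusted *p* under 0.05 against 12.3% of all genes, and DESeq2 called none. *Aqp4*, *Tnc* and *C4b* were named after their values were seen.

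With either modification alone most list genes were below 0. In Egr1 fNes Cre- against wild type, 18 of 57 genes (31.6%) were above 0 and 39 below, with a median of -0.040, beside 50.8% above 0 and a median of 0.0034 over all genes tested. Of the list genes, 5 (8.77%) had an unadjusted *p* under 0.05 against 9.68% of all genes. In Egr1 wtNes Cre+ against wild type, 17 (29.8%) were above and 40 below 0, with a median of -0.070, beside 53.7% above 0 and a median of 0.013 over all genes tested. Of the list genes, 8 (14.0%) had an unadjusted *p* under 0.05 against 6.05% of all genes. These comparisons share the 6 wild-type mice, and the 2 genotypes compared are also controls of the Egr1cKO mice, so low values in them lower these log2FC and raise those of Egr1cKO. By sex, 3 genes (5.26%) had an unadjusted *p* under 0.05 between females and males against 5.66% of all genes, and 1 (1.75%) in the difference of the Egr1cKO effect between the sexes against 6.09%. Neither edgeR nor DESeq2 called any of these genes in these 4 comparisons.

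Calls of list genes changed when single mice were left out, as they did with DESeq2 in the interaction and without a filter on low counts. Without the third Egr1cKO male, 215 of 18646 genes (1.15%) were called against the 18 other mice, among them 3 of the 57 list genes (5.26%), *Taok1*, *Crim1* and *Wwtr1*. Without the second Egr1 wtNes Cre+ male, which had the highest share of counts on long transcripts of the 24 mice, 1526 of 18821 genes (8.11%) were called in the interaction, among them 9 list genes (15.8%), *Taok1*, *Crim1*, *Ptpn4*, *Wwc2*, *Arhgef17*, *Ptpn13*, *Dchs1*, *Lats1* and *Fat4*. Without that mouse 794 of 17336 genes (4.58%) were called against Egr1 wtNes Cre+ mice, among them 6 list genes (10.5%), *Taok1*, *Crim1*, *Wwc2*, *Arhgef17*, *Dchs1* and *Amot*. Without the first Egr1 fNes Cre- male, 304 of 17463 genes (1.74%) were called against Egr1 fNes Cre- mice, among them *Taok1*, *Crim1* and *Ptpn4* (5.26% of the list), and 325 of 18684 (1.74%) in the interaction, among them *Crim1* (1.75% of the list). All these log2FC and interactions with a mouse left out were above 0.

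*Ptpn14*, *Tead1*, *Amotl1* and *Yap1* have many exonic bases, taken over all annotated exons of a gene. Libraries differed in how many counts fell on such genes. Their share of counts is called the share of long transcripts, though no transcript length was measured. Protein-coding genes with over 8000 exonic bases took 26.5 to 30% of counts in Egr1cKO mice with a median of 29.4%, the third male being the lowest. Egr1 wtNes Cre- mice had a median share of 28.4%, Egr1 wtNes Cre+ mice a median of 26.5% and Egr1 fNes Cre- mice a median of 26.3%, and the genotype medians of *Tead1* had the same order. With this share as a covariate, chosen after the data were seen, the log2FC against the 18 others was 0.50 for *Ptpn14*, 0.20 for *Wwtr1*, 0.15 for *Amotl1*, 0.14 for *Yap1*, 0.00080 for *Lats1* and -0.10 for *Tead1*. In that fit 36 of the 57 list genes were above 0 (63.2%), with a median of 0.030 and 4 (7.02%) at an unadjusted *p* under 0.05. Over all 18433 genes of the fit 50.4% were above 0, with a median of 0.0012 and 1384 (7.51%) at an unadjusted *p* under 0.05. In the interaction the same covariate left 689 of all genes (3.74%) at an unadjusted *p* under 0.05, against 19.2% without it. Against Egr1 fNes Cre- mice it left 997 (5.77%), against 16.2% without it. The share is itself measured from the libraries and includes some of the pathway genes.

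Marker lists of other cell types were compared with the same groups. The 6 astrocyte markers, led by *Slc1a2*, summed to 5478, 5426 and 5422 CPM in Egr1cKO females and to 5489, 4582 and 3872 CPM in Egr1cKO males, against 3579 to 5225 CPM with a median of 4429 CPM in the 18 others. The 5 endothelial markers, led by *Flt1*, had a median of 108 CPM in Egr1cKO mice and 93.6 CPM in the others, and the 4 mural markers, led by *Rgs5*, had 128 and 115 CPM. The 6 fibroblast markers, led by *Dcn*, had medians of 69.2 and 56.5 CPM, and the 5 microglia markers, led by *Csf1r*, had 259 and 229 CPM. The 6 neuron markers, led by *Snap25*, had 5367 and 5304 CPM, and the 5 oligodendrocyte markers, led by *Mbp*, had 3998 and 4743 CPM. By genotype the oligodendrocyte median was 3932 CPM in Egr1 wtNes Cre-, 4918.5 CPM in Egr1 fNes Cre- and 4861 CPM in Egr1 wtNes Cre+ mice. The Egr1cKO median was thus lower than those with a single modification but not lower than that of wild type. None of the genes on these lists was at 0 in all mice.

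The library measures and marker sums moved with several pathway genes, and the values are given as a description. In the 18 mice with intact *Egr1*, *Wwtr1* had r = 0.56 with the astrocyte sum, and r = 0.63 once the means of the 6 groups of genotype and sex were subtracted. *Crim1* had r = 0.81 with the astrocyte sum, 0.91 with the share of long transcripts and -0.74 with the mitochondrial share (0.89, 0.90 and -0.75 within the groups). *Taok1* had 0.80, 0.89 and -0.74 with the same measures (0.89, 0.92 and -0.89 within the groups). With the share of long transcripts *Tead1* had r = 0.83 and *Lats1* r = 0.77 (0.84 and 0.76 within the groups). Gene and measure come from the same library (n = 18) and the share includes some of these genes, so the coefficients carry no test. The part of the marker sums in the differences of Egr1cKO mice was not tested.

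Whether *Ptpn14* goes with other Hippo genes was tested in the 18 mice with intact *Egr1*. The means of their genotypes enter the interaction that chose the gene, so deviations from the means of the 6 groups of genotype and sex were used, over all 46656 orders of the mice within their groups, a test chosen after the data were seen. None of the 8 relations passed at a Benjamini-Hochberg adjusted *p* of 0.05. The strongest was with *Tead1*, with Pearson's r = 0.40 (exact permutation *p* = 0.167, adjusted over the 8 relations 0.701) and Spearman's rho = 0.42 (exact permutation *p* = 0.153, adjusted 0.731). *Amotl2* had r = 0.38 (exact permutation *p* = 0.175), *Lats1* 0.32 (exact permutation *p* = 0.263), *Amotl1* 0.16 and *Lats2* 0.061. *Nf2* (-0.12), *Wwtr1* (-0.14) and *Yap1* (-0.22) were below 0. Without the 2 mice whose *Ptpn14* deviated most, r was 0.22 for *Tead1*, 0.039 for *Lats1* and -0.56 for *Wwtr1*.

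The levels themselves, which carry the differences between genotypes, gave like coefficients for some genes and not for others. Over the 18 mice r ran from -0.11 for *Nf2* to 0.45 for *Tead1* and rho from -0.11 to 0.41, given as a description because genotype means of *Ptpn14* served to choose it. *Tead1* had r = 0.55 in the 12 Egr1 wt mice, 0.25 in the 6 Egr1 fNes Cre- mice and 0.45 without the 2 mice farthest from the *Ptpn14* median. *Lats1* had r = 0.32 in the 18 mice, 0.54 in the 12, -0.31 in the 6 and 0.050 without the 2 farthest. *Amotl1* had 0.099, 0.26, -0.69 and -0.12 in the same order. *Yap1* and *Wwtr1* had r = 0.15 and 0.062, and without the 2 farthest mice these were -0.069 and -0.21.

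**Figure D3:**
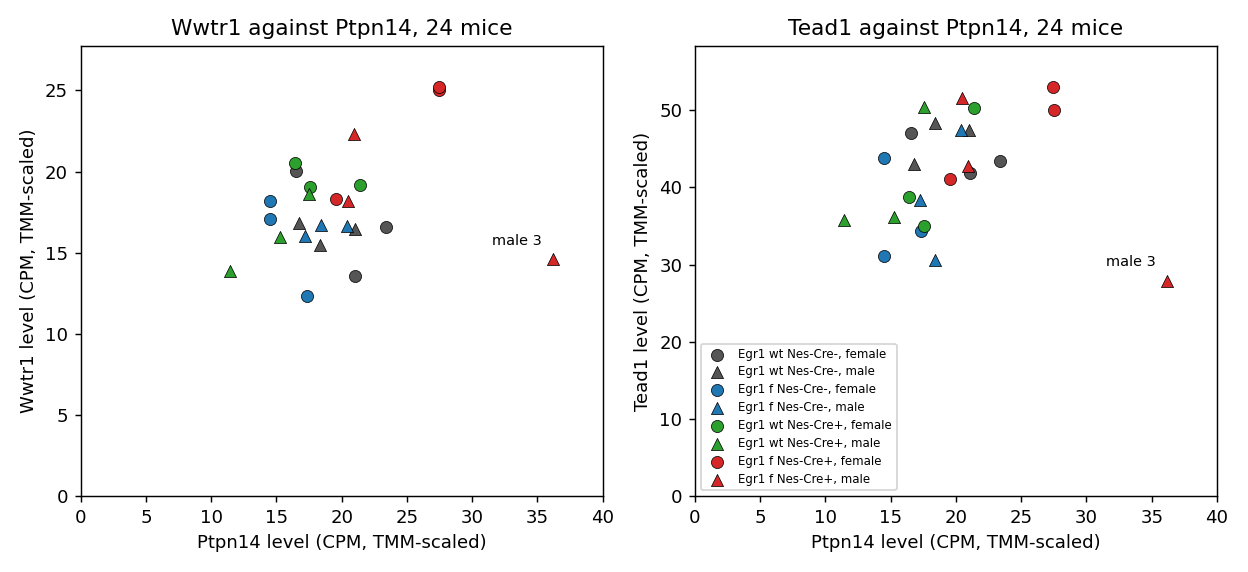
Levels of *Wwtr1* (left, y axis) and *Tead1* (right, y axis) against *Ptpn14* (x axes) in each of the 24 mice, all in TMM-scaled CPM, with color for genotype, circles for females and triangles for males. The third Egr1cKO male, marked, has the highest *Ptpn14* (36.2 CPM) with 14.6 CPM of *Wwtr1* and 27.9 CPM of *Tead1*, and the second and the third Egr1cKO females have 27.5 CPM of *Ptpn14* with 25.1 and 25.2 CPM of *Wwtr1*.

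Other pairs of members in the same 18 mice are given as a description. *Tead1* and *Lats1* had r = 0.76, *Lats2* and *Nf2* 0.58, *Yap1* and *Amotl2* 0.51, and *Lats2* and *Amotl2* -0.52. *Yap1* and *Wwtr1* had r = 0.45. Both genes of a pair come from the same library, so its depth and tissue composition enter both values.

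Among 13 library measures and marker sums compared with *Ptpn14* in the 18 mice, a family chosen after the data were seen, the oligodendrocyte sum had the largest r. Over the levels themselves r and rho were both -0.61, a description that carries the genotype differences of *Ptpn14*. Within the 6 groups r was -0.72 (exact permutation *p* = 0.00116, adjusted over 13 relations 0.0150), with rho = -0.74 (exact permutation *p* = 0.00289, adjusted 0.0376). This test was added after a test over the levels, which draws on the values that chose *Ptpn14*, had been seen not to pass after adjustment, so its *p* does not count that choice. For the levels themselves r was -0.59 in the 12 Egr1 wt mice, -0.63 in the 6 Egr1 fNes Cre- mice and -0.69 without the 2 farthest mice. The next largest r within the groups was that of the choroid plexus sum, -0.52 (exact permutation *p* = 0.0463, adjusted 0.301). The astrocyte sum had r = 0.34 over the levels and 0.16 within the groups, and the share of long transcripts 0.39 and 0.37. Other members are given as a description. With the oligodendrocyte sum *Tead1* had r = -0.64 over the levels and -0.58 within the groups. The 8 other members ran within the groups from that value to 0.40 for *Yap1*. A negative r with this sum was thus not particular to *Ptpn14*, and its frequency over all genes is not given here. The third Egr1cKO male and the second Egr1cKO female, first and second of all mice for *Ptpn14*, had the lowest oligodendrocyte sums of the 24 mice, 3054 and 3232 CPM. The *Ptpn14* levels of these mice helped to choose the gene, so this is a description and adds no weight to the relation.

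The 5 genes whose levels were most like *Ptpn14* over all 24 mice, out of 19742, were *Acvr2a* (r = 0.84), *Celf4* (0.78), *Negr1* (0.77), *Lyrm9* (0.76) and *Phactr2* (0.73), and none is on the Hippo lists. Once the means of the 8 groups of sex and genotype were subtracted, they were *Nrarp* (0.84), *Gm25777* (0.84), *Acvr2a* (0.83), *Pnliprp2* (0.79) and *Ahi1* (0.79). The third Egr1cKO male raised these values. Without it, an alternative chosen after the data were seen, the first 5 had r = 0.75, 0.73, 0.64, 0.65 and 0.65 in the 23 mice, with ranks from 8 to 167 among all genes. The other 5 had 0.78, 0.73, 0.73, 0.68 and 0.68, with ranks from 6 to 60. *Acvr2a*, which encodes an activin receptor, is on both lists. It ran from 59.5 to 86.8 CPM in Egr1cKO mice and from 48.5 to 70.7 CPM in the 18 others, with a log2FC of 0.20. The genes were picked for their likeness, so these coefficients carry no test.

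The 3 nearest genes on each side of *Ptpn14* on chromosome 1 were followed as well, and edgeR called none of them. *Smyd2*, on the opposite strand with its 3' end 3797 bases after the end of *Ptpn14*, had a log2FC of -0.10 against the 18 others (edgeR adjusted *p* = 0.396), and *Gm37422*, which begins 3240 bases after the end of *Ptpn14*, had -0.070 (edgeR adjusted *p* = 0.860). *Cenpf*, 40182 bases before *Ptpn14*, had 0.24 (edgeR adjusted *p* = 0.607) at 0.748 to 2.21 CPM per mouse. *Kcnk2* (0.17, edgeR adjusted *p* = 0.243), *A430027H14Rik* (-0.17, edgeR adjusted *p* = 0.841) and *Gm38245* (-0.69, edgeR adjusted *p* = 0.334) were the other near genes.

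Promoter windows of 300 bases, 250 before to 50 after a gene start, were searched on both strands because TEAD factors bind near genes on such target lists. RefSeq (GRCm38.p6) gave windows for 8 of the 9 genes, all but *Tead1*. The letters GGAATG, a core that TEAD factors bind, or their reverse complement CATTCC were in 6 of the 11 windows of the 8 genes (54.5%), of which both windows of *Wwtr1* hold the same match, and in 14.7% of all 32851 windows. In windows of the target signature, which includes *Ptpn14*, *Amotl2* and *Lats2*, they were in 7 of 17 (41.2%). The match in the window of *Ptpn14* begins 146 bases before the RefSeq start, within the 30 bases of chr1:189728110-189728139 on the + strand. That of *Yap1* is within chr9:8004720-8004749 on the - strand, that of *Wwtr1* within chr3:57576029-57576058 on the - strand and that of *Amotl2* within chr9:102717727-102717756 on the + strand. *Lats2* has 2 windows, and its only match begins just after a RefSeq start, within chr14:57746102-57746131 on the - strand. In GENCODE *Lats2* spans 57689662-57758388 on the - strand and *Amotl2* 102716672-102733418 on the + strand. The matches of these 2 genes thus lie inside the annotated genes and not before their first base. These stretches of 30 bases around the matches are shown to set the members side by side, with the matched letters in capitals:
Ptpn14: cctccccggacgCATTCCtggcccgcccag
Yap1: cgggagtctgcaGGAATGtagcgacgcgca
Wwtr1: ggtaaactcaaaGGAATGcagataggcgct
Amotl2: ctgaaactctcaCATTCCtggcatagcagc
Lats2: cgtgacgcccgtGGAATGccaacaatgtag

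The EGR1 motif was searched as GCGTGGGCG or GCGGGGGCG on both strands. It was in 0 of the 11 windows of the 8 genes and in 3.47% of all windows. The 250 bases before the start of *Ptpn14*, chr1:189728018-189728267 on the + strand, are shown because EGR1 is a transcription factor and *Ptpn14* was chosen on its level after the loss of *Egr1*. Of these bases 80.8% are G or C, and the capitals mark the TEAD letters:
Ptpn14 upstream: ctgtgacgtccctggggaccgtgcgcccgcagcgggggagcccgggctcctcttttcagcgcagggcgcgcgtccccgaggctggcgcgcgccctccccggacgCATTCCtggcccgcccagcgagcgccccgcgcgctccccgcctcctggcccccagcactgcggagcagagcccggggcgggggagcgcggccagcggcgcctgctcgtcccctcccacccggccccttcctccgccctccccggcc
A match is a description of letters, and nothing about binding was measured.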

How the data were processed

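RNA of 24 hippocampi was sequenced in non-stranded libraries. According to the submitters' processing notes, reads were trimmed with Trim Galore, checked with FastQC and mapped with STAR to GRCm38, and the authors deposited whole-number counts per gene and mouse without normalization. The annotation used for counting is not given in the sources used here. GENCODE M21 gave symbols for 36493 of the 36605 genes.

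Tests used edgeR 4.0.16 in R 4.3.3 on the deposited counts, with TMM, filterByExpr (minimum count 10) on the mice compared, the quasi-likelihood test and Benjamini-Hochberg adjustment over all genes tested. A call needed an adjusted *p* no higher than 0.05 and an FC no lower than 1.2, or that *p* alone for interactions. Pairwise genotype comparisons had sex as a covariate. CPM used TMM factors from 19742 genes kept over all mice, and correlations used log2(CPM + 1) with 100000 permutations, or all orders within groups, two-sided. Alternatives were DESeq2 1.42.0, its size factors in edgeR, no filter, other covariates and controls, a replicate block, and leaving out each mouse. Most of the edgeR comparisons were checked on simulated counts, drawn independently for each gene with a fixed spread. Those counts lack the shared differences between libraries seen here, so the check does not cover how the tests behave under them. No 2 mice of a genotype and sex had counts within sampling noise of each other.

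The members and lists were chosen with earlier results of these data known. Genes were named by rule: *Egr1*, the 9 members, list genes called, the 2 most and 2 least changed of each list, the 5 genes most like *Ptpn14* by each measure, and its 3 nearest genes on each side. The edgeR *p* values set a difference against the spread among these mice, estimated with the help of all genes. Permutation *p* values set a coefficient against those of reordered mice. Neither separates the allele from the series of mice.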

Additional observations from a re-analysis of the deposited data

Results flagged for a closer look

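For the 9 genes and *Egr1*, a mouse far from the others of its genotype was looked for in 40 groups of 6 mice, where chance flags about 1 in 20 groups, and 4 groups held one. *Nf2* in the third Egr1cKO male was at 107 CPM, below the next mouse at 135 CPM, and this is the mouse with the highest *Ptpn14*. *Nf2* in the second Egr1 fNes Cre- male was at 122 CPM, below 134 CPM. *Yap1* in the first Egr1 wtNes Cre+ female was at 28.9 CPM, above 20.8 CPM, and this mouse had the highest choroid plexus sum. *Lats2* in the first Egr1 wtNes Cre- male was at 46.8 CPM, above 36.5 CPM. The *Ptpn14* level of the third Egr1cKO male, 36.2 CPM, was not far enough from the next, 27.5 CPM, to be counted. No member was called for a difference of the Egr1cKO effect between the sexes. The largest estimate, female minus male, was that of *Tead1*, 0.29 ± 0.22 (edgeR adjusted *p* = 0.914). With 3 Egr1cKO mice per sex, a difference of that size can be missed.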

How the results depend on the processing

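Calls were few and moved with the setting. DESeq2 called 42 genes against the 18 other mice, 335 in the interaction, 79 against Egr1 fNes Cre-, 30 against Egr1 wtNes Cre+, 2 for floxP alone, 20 for Nestin-Cre alone and 5 for the sex difference of the effect, and in the interaction 2 were list genes. Without a filter on low counts the numbers were 7, 1173, 808, 529, 163, 156 and 146, with 6 list genes in the interaction, 4 against Egr1 fNes Cre-, 3 against Egr1 wtNes Cre+, 1 for Nestin-Cre alone and 1 for the sex difference. Against the 18 others, 3 genes were called with sex as a covariate, 3 with Egr1 fNes Cre- controls alone, 150 in females alone and 1 in males alone. In 1 fit of all 24 mice, 7 were called against Egr1 fNes Cre- and 4 against Egr1 wtNes Cre+. The cause was not tested.

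With the replicate number as a block, 7 genes were called against Egr1 fNes Cre- mice and 0 for the sex difference. Nothing in the labels pairs mice by number, and the median correlation of deviations between same-numbered mice was -0.015 over 84 pairs. The block changed the call of no list gene.

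Leaving out each mouse in turn, 1 to 215 genes were called against the 18 others, 1 to 1526 in the interaction, 2 to 304 against Egr1 fNes Cre-, 1 to 794 against Egr1 wtNes Cre+, 0 to 1 for floxP alone, 0 to 229 for Nestin-Cre alone, 0 to 1 for the sex difference and 11 to 14 by sex. List genes ranged from 0 to 3, 9, 3 and 6 in the first 4 and were 0 in the rest. Against the 18 others the mice concerned were the third (215), second (8) and first (3) Egr1cKO males and the first (9) and second (2) Egr1 wtNes Cre+ females. The second Egr1 wtNes Cre+ male gave 1526, 794 and 229, and the third gave 1 for Nestin-Cre alone. The first Egr1 fNes Cre- male gave 325 in the interaction, 304 against its genotype and 1 for floxP alone. The second Egr1cKO male gave 10 against Egr1 fNes Cre- and 2 against Egr1 wtNes Cre+, and the first and the third Egr1cKO females each gave 2 against Egr1 fNes Cre-. The sex difference gave 0 without the second or the third Egr1cKO male, any Egr1cKO female, the first or the second male or the second or the third female of Egr1 fNes Cre-, the third male or the first female of the wild type, or the first male or the second or the third female of Egr1 wtNes Cre+.

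No result past a threshold changed sign. Of the alternative log2FC of the 9 members, 92 had another sign, none of them past the threshold. *Wwtr1*, *Tead1* and *Lats1* each passed the threshold in 1 alternative, and *Ptpn14* was given no test in the comparisons that chose it. Of 13 library measures and marker sums, 1, the oligodendrocyte sum, passed with *Ptpn14* within the 6 groups, by a test chosen after the data were seen. Over the levels 0 had passed, which is no test, since genotype differences of *Ptpn14* served to choose it. All 72 alternative member levels moved by less than 1 SD. With 267 to 931 reads of *Ptpn14* per mouse, depth limits the precision of each value.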
